A study of Drosophila melanogaster with 14 samples.

Results

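The 10 nicotinic acetylcholine receptor subunit genes of Drosophila melanogaster, nAChRalpha1 to nAChRalpha7 and nAChRbeta1 to nAChRbeta3 (α1 to α7 and β1 to β3 below), were taken by gene name from a table of 13931 genes. Kenyon cells are the intrinsic neurons of the mushroom body, the centre for associative memory in the fly brain. The study profiled the RNA of tagged, affinity-purified Kenyon cell nuclei (TAPIN-seq) and compared 7 subtypes with 2 libraries each, 14 in all. In every library a split-GAL4 driver expressed the nuclear envelope tag UNC84-2XGFP, and nuclei came from 400 frozen heads of flies of both sexes, 2 to 5 days old.

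The γ class holds the subtypes γd (driver MB607B) and γm+d (MB131B). The α′/β′ class holds α′/β′ap+m (MB370B) and α′/β′m (MB418B), and the α/β class holds α/βp (MB371B), α/βs (MB185B) and α/βc (MB594B). The groups differ by driver alone, and no animal was treated. The γm+d driver also labels γd cells and the α′/β′ap+m driver also labels α′/β′m cells, so those pairs share cells, and the drivers can label a few cells outside the mushroom body. The study describes the libraries of a subtype as independent biological replicates. In comparisons of subtypes, p-values measure the spread between them. In the main comparisons of classes, p-values measure the spread of all libraries within a class, which includes differences between its subtypes.

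Nicotinic receptors are pentameric cation channels that open on binding acetylcholine, the main fast excitatory transmitter of the insect brain. Alpha subunits carry the paired cysteines of the principal binding face, and beta subunits lack them. Kenyon cells receive cholinergic input from olfactory projection neurons in the calyx and also release acetylcholine themselves. In the fly, α5, α6 and α7 are the subunits closest in sequence to the vertebrate α7 subunit, α6 is the target of the insecticide spinosad, and α1, α2, α3, β1 and β2 are subunits of receptors sensitive to neonicotinoid insecticides.

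Levels are in TPM, the share of a gene in a library after correction for transcript length, so levels of different genes can be set side by side. TPM keep no record of read numbers, and the depth behind a value was not used here, so a 0 means only that a gene is listed at 0. A lower level can come from fewer labelled cells with the RNA or from less RNA per nucleus, and these cannot be told apart. Genes above 0 numbered 5632 and 7601 in the γd libraries and 6534 in α/βp replicate 1, against 8836 to 11359 in the other 11, so results that rest on those 3 libraries are also given without them. The summed Kenyon cell markers (ey, toy, dac, rut, dnc and prt) lay between 5028 and 9124 TPM in every library. Glial markers summed to at most 138 TPM, and Pdf, which marks clock neurons, was listed at 0 throughout. The photoreceptor opsin ninaE and the fat body yolk protein Yp1 were highest as a class in α/β, with some overlap between classes. ninaE lay between 915 and 3569 TPM in the 6 α/β libraries, against 341 to 912 TPM in γ and 328 to 1280 TPM in α′/β′. It was called higher in α/β than in γ by the test described below (3.05-fold, limma adjusted p = 0.04216). Yp1 lay between 1177 and 3888 TPM in α/β, against 298 to 1086 TPM in γ and 379 to 1235 TPM in α′/β′. The muscle myosin Mhc lay between 26.2 and 182 TPM in α/β, against 8.54 to 49.0 TPM in γ and 5.73 to 24.5 TPM in α′/β′, and was called higher in α/β than in α′/β′ by the test described below (5.70-fold, limma adjusted p = 0.04254). The part of Mhc in the class results was not tested.

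The genes sit on 3R, 3L, 2L and the X of the BDGP6 assembly, as annotated by Ensembl. α1 (FBgn0000036, chr3R:24393896-24457157, minus strand), α2 (FBgn0000039, chr3R:24485428-24491147, plus strand) and β2 (FBgn0004118, chr3R:24509228-24515106, minus strand) form a cluster of 121211 bases, with 28270 and 18080 bases between neighbours. α3 (FBgn0015519, chrX:8276200-8367169) and α7 (FBgn0086778, chrX:19327075-19348447) are on the minus strand of the X. α4 (FBgn0266347, chr3L:23206669-23287448) and β1 (FBgn0000038, chr3L:4429349-4435993) are on the plus strand of 3L. α5 (FBgn0028875, chr2L:14040170-14094401, plus strand), α6 (FBgn0032151, chr2L:9793317-9886250, minus strand) and β3 (FBgn0031261, chr2L:545129-547096, plus strand) lie on 2L. All 1532 exonic bases of β3 also belong to Ets21C on the opposite strand, and α3 shares 251 exonic bases with CG1636 on the opposite strand. Whether counting used strand is not given in the sources used here, so the low values of β3 and α3 are uncertain in this respect.

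β1 was the leading subunit in all 14 libraries, with 11336 ± 3592 TPM (SD, n = 14), the 6th highest mean of all genes in the table. α6 followed with 7421 ± 4713 TPM and α5 with 4341 ± 1612 TPM, the 11th and 24th highest. These 3 genes together made up between 86.3% (α′/β′m replicate 2) and 93.2% (γd replicate 2) of the summed TPM of the 10 subunits, with a median of 90.0%. The middle tier held α7 (947 ± 832 TPM), α4 (758 ± 219 TPM), α1 (335 ± 117 TPM) and β2 (277 ± 114 TPM). α2 reached 102 ± 54.6 TPM and was listed at 0 in γd replicate 1. α3 lay between 1.18 and 73.3 TPM, and β3 was listed at 0 in 13 libraries and at 1.36 TPM in γm+d replicate 2. The 9 subunits above the low-value filter described below had means from 19.3 TPM (α3) to 11336 TPM (β1). Among them the SD was largest relative to the mean for α3 and α7.

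**Figure D1:**
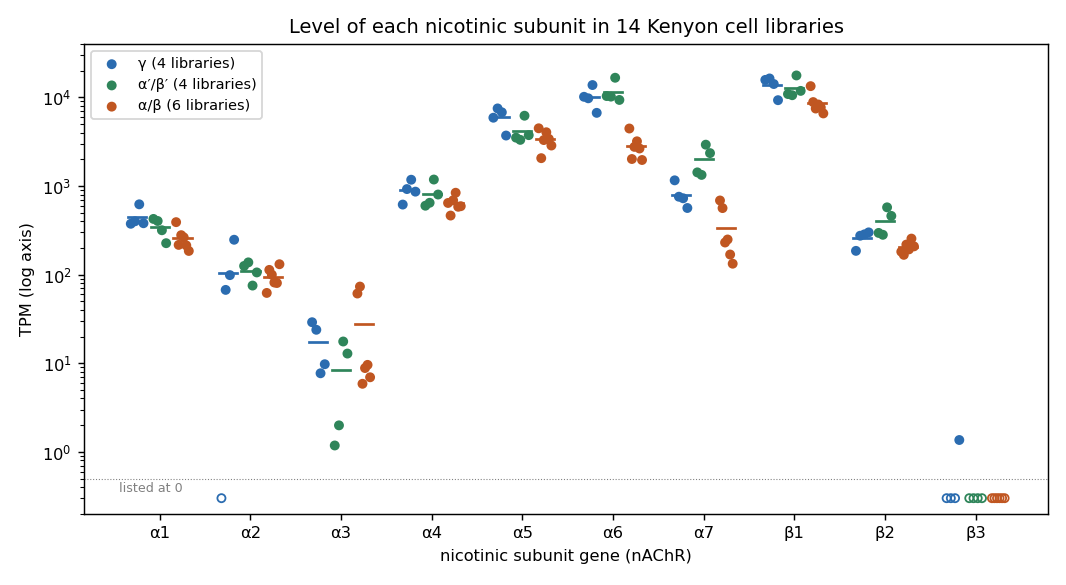
Level of each subunit gene in TPM on a log axis, one point per library, grouped by class (γ and α′/β′, 4 libraries each, α/β, 6 libraries), with a bar at the class mean (none drawn for β3). Open points below the dotted line are values listed at 0. α6 lies between 1963 and 4450 TPM in α/β and between 6684 and 16639 TPM in the other 8 libraries.

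The summed level of the 10 subunits was 34129 and 36029 TPM in γd, 37588 and 22047 TPM in γm+d, 27614 and 26874 TPM in α′/β′ap+m, and 45594 and 28872 TPM in α′/β′m. In α/β it was 24323 and 14511 TPM in α/βp, 15056 and 17165 TPM in α/βs, and 15039 and 12663 TPM in α/βc. The α/β libraries were therefore the lowest as a class, with 1 overlap, since α/βp replicate 1 lay above γm+d replicate 2. Without both γd libraries and α/βp replicate 1, α/β ran from 12663 to 17165 TPM, and γ was left with 37588 and 22047 TPM. These sums are TPM with no further normalization. In every subtype but γd and α′/β′ap+m, the replicate with fewer genes above 0 had the higher sum. The class means were 32448 ± 7077 TPM (SD, n = 4) in γ, 32239 ± 8942 TPM (SD, n = 4) in α′/β′ and 16460 ± 4112 TPM (SD, n = 6) in α/β.

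The make-up of that sum also differed between classes, and it is given as a description, since the shares of 1 library add to 100% and depend on each other. α6 held 13.9% to 18.6% of the subunit TPM in α/β, 27.1% to 36.6% in γ and 32.4% to 37.9% in α′/β′, so α/β lay apart from both other classes. β1 went the other way, with 48.4% to 60.9% in α/β against 37.6% to 46.1% in γ and 38.7% to 41.0% in α′/β′. α5 held 12.3% to 13.6% in α′/β′, below its 16.8% to 20.8% in γ and 14.2% to 23.5% in α/β. α7 held 4.96% to 8.13% in α′/β′, above its 1.93% to 3.39% in γ and 1.05% to 3.88% in α/β. These 4 shares are named because 1 class stood apart in each, so their number is not a result. In them, α/β had a higher share of β1 and a lower share of α6. α′/β′ had a higher share of α7 and a lower share of α5. The β1 level itself had its lowest class mean in α/β (8711 TPM, against 13872 TPM in γ and 12738 TPM in α′/β′). γ had none of these 4 shares apart from both other classes. The shares of α1, α2, α4 and β2 overlapped between classes and stayed under 5%.

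**Figure D2:**
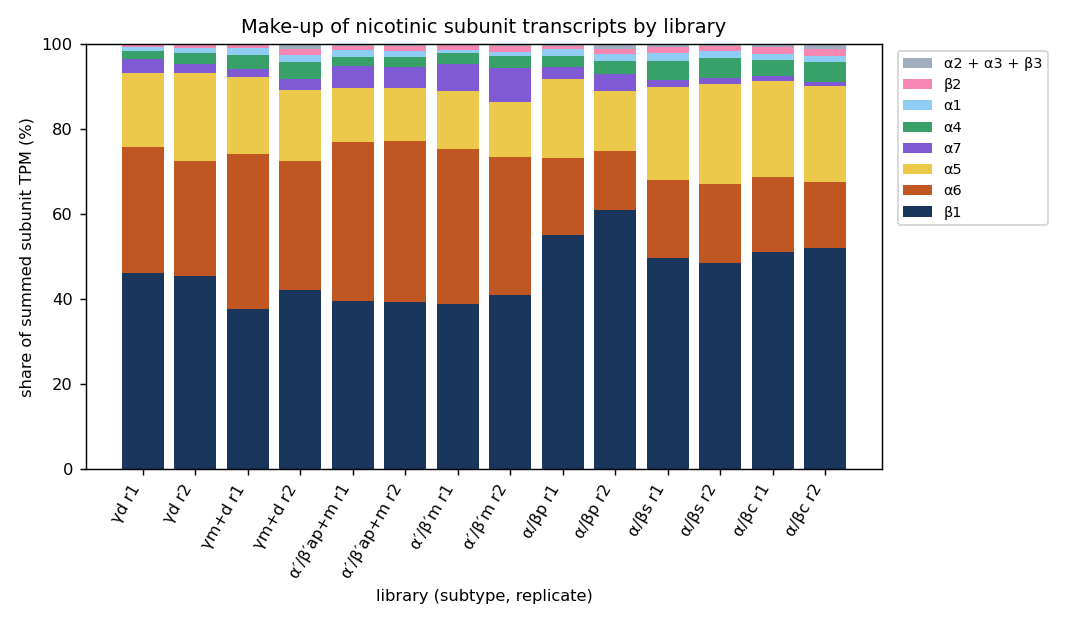
Share of each subunit in the summed TPM of the 10 subunits, one stacked bar per library (r1 and r2 are the replicates), in percent from 0 to 100. The α6 segment is between 13.9% and 18.6% in the 6 α/β bars and at least 27.1% in the 8 others.

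The class comparisons asked whether a subunit differed between γ, α′/β′ and α/β beyond the spread of libraries within a class. The values, log2(TPM + 1) after quantile normalization, were fitted with limma. The p-values were adjusted by the Benjamini-Hochberg method over the 8646 genes that reached 10 TPM in 1 library or more. A gene was called when its adjusted p was under 0.05 and its difference at least 2-fold. Of the 10 subunits, 9 were tested, and β3 was below the filter. The quantile step shifts library distributions, so a fold change below is not the ratio of the TPM means. Between α/β and γ, 1 of 9 subunits was called, α6, where 3.10% of all genes tested were called. Between α/β and α′/β′, 2 of 9 were called, α6 and α7, where 4.89% of all genes were. Between α′/β′ and γ none was called, where 2.82% of all genes were, and 2 of 9 (α6 and α7) had an unadjusted p under 0.05. The median log2 difference of the 9 subunits was -0.56 for α/β minus γ and -0.44 for α/β minus α′/β′, beside 0.11 and -0.07 over all genes tested.

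α6 levels in γ were 10142 and 9755 TPM in the γd libraries and 13762 and 6684 TPM in the γm+d libraries. In α′/β′ they were 10343 and 10191 TPM in α′/β′ap+m and 16639 and 9347 TPM in α′/β′m. In the 6 α/β libraries the lowest level was 1963 TPM, the median 2705 TPM and the highest 4450 TPM. All 6 α/β libraries lay below all 8 others, while γ and α′/β′ overlapped. α6 was 3.16-fold lower in α/β than in γ (log2 difference -1.66, SE 0.16, limma adjusted p = 3.864e-06). It was 4.49-fold lower in α/β than in α′/β′ (log2 difference -2.17, SE 0.16, adjusted p = 9.969e-08). Both calls held in all 28 alternative fits, with log2 differences from -2.24 to -1.52 against γ and from -2.26 to -1.89 against α′/β′. With the level of ninaE plus Yp1 as a covariate, the difference was -1.52 against γ (adjusted p = 0.0008841) and -2.02 against α′/β′ (adjusted p = 4.596e-05). Without both γd libraries and α/βp replicate 1 it was -1.86 and -2.21. Between α′/β′ and γ the α6 log2 difference was 0.51 (SE 0.17, adjusted p = 0.1483, 95% confidence interval 0.14 to 0.87), and with median-ratio scaling its sign turned (-0.35, adjusted p = 0.6958).

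α7 ran from 133 TPM in α/βc replicate 2 to 2923 TPM in α′/β′m replicate 1. Its levels in α′/β′ were 1423 and 1333 TPM in α′/β′ap+m and 2923 and 2348 TPM in α′/β′m. In γ they were 1158 and 756 TPM in γd and 726 and 564 TPM in γm+d. In α/β they were 686 and 563 TPM in α/βp, 230.2 and 249 TPM in α/βs, and 168 and 133 TPM in α/βc. The 4 α′/β′ libraries lay above the 10 others, and within α/β the α/βp libraries lay near the γm+d libraries. α7 was 7.34-fold lower in α/β than in α′/β′ (log2 difference -2.88, SE 0.41, adjusted p = 0.0001544), a call kept in all 28 alternatives. Against γ its difference in α/β was -1.42 (SE 0.41, adjusted p = 0.07053), and without α/βp replicate 1 it was -1.67 (adjusted p = 0.01164) and called, as it was without α/βp replicate 2 (-1.64, adjusted p = 0.03025). Between α′/β′ and γ the difference was 1.46 (SE 0.45, adjusted p = 0.1002), and without α/βp replicate 1 it was 1.45 (adjusted p = 0.04186) and called. The limma model with 1 mean per subtype called α7 in both comparisons (adjusted p = 0.0001334 and 0.0002344). Its p-values measure the spread of replicates within a subtype and leave out differences between the subtypes of a class. In either comparison with γ, α7 stayed uncalled in 24 of 28 alternatives.

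The remaining tested subunits were not called between classes, although the direction against α/β was shared by several. β1 was lower in α/β than in α′/β′ (log2 difference -0.65, SE 0.14, adjusted p = 0.01004), which is under 2-fold. Other scalings gave -0.55 (adjusted p = 0.1575, no normalization beyond TPM) and -0.40 (adjusted p = 0.8399, median-ratio). β1 medians were 7995 TPM in α/β (6584 to 13375), 14934 TPM in γ (9290.3 to 16332) and 11360 TPM in α′/β′ (10569 to 17663). The highest α/β library, α/βp replicate 1, overlapped both other classes. α5 passed the adjusted threshold between α/β and γ (log2 difference -0.66, SE 0.17, adjusted p = 0.03559) and was also under 2-fold. It did not pass with those scalings (adjusted p = 0.06133 and 0.1404), and leaving out 1 library gave adjusted p from 0.02199 to 0.1316. Medians of α5 were 3346 TPM in α/β, 6334 TPM in γ and 3628 TPM in α′/β′. β2 levels did not overlap between α/β (167 to 255 TPM) and α′/β′ (281 to 574 TPM), with a log2 difference of -0.90 (SE 0.26, adjusted p = 0.0592) that was called without α′/β′ap+m replicate 2 (-1.08, adjusted p = 0.03867). α6, α7 and β2 were the 3 of 9 subunits whose α/β and α′/β′ ranges did not overlap, where 7.48% of all genes tested did not. α6 alone did not overlap between α/β and γ, where 4.31% of all genes did not, and α7 alone between α′/β′ and γ, where 9.85% did not.

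**Figure D3:**
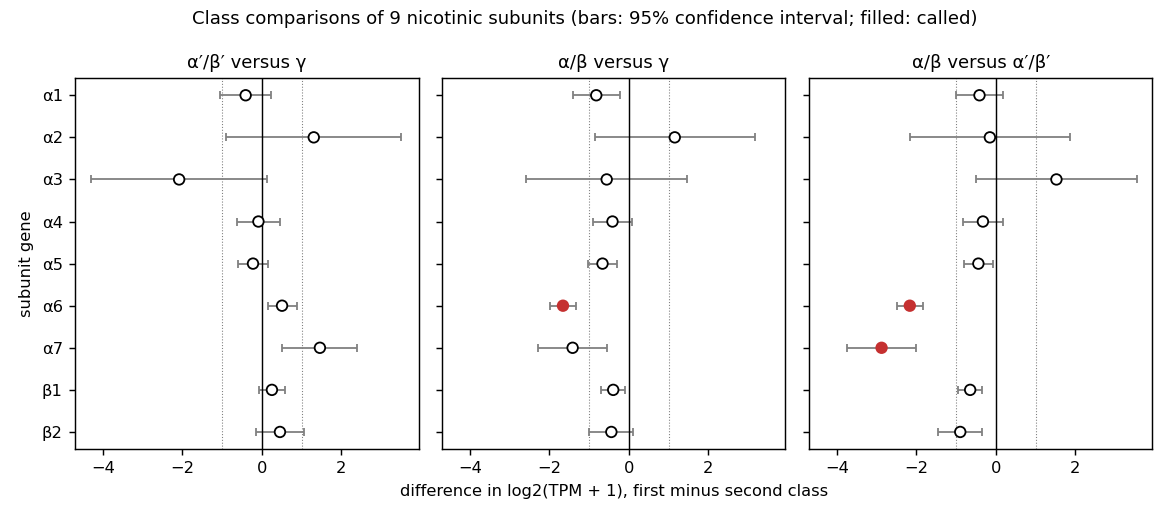
Difference in quantile-normalized log2(TPM + 1) of 9 subunits for the 3 class comparisons, with 95% confidence intervals from limma and dotted lines at 2-fold. Filled points were called, namely α6 at -1.66 in α/β versus γ, and α6 at -2.17 and α7 at -2.88 in α/β versus α′/β′.

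Ratios of 2 subunits within a library do not depend on the scaling of that library. They are given with no test and with no share over other pairs of genes. The α6 to α5 ratio separated the 3 classes without overlap. It lay between 0.686 and 0.995 in the 6 α/β libraries, between 1.30 and 2.03 in γ, and between 2.50 and 3.08 in α′/β′, so α5 exceeded α6 only in α/β. The α6 to β1 ratio was 0.228 to 0.384 in α/β, 0.597 to 0.974 in γ and 0.790 to 0.964 in α′/β′, so γ and α′/β′ overlapped on this measure. In the α5 to β1 ratio, α/β (0.233 to 0.486) overlapped both γ (0.374 to 0.480) and α′/β′ (0.313 to 0.351). The β2 to β1 ratio overlapped between all classes (0.0136 to 0.0331 in α/β, 0.0118 to 0.0322 in γ, 0.0266 to 0.0388 in α′/β′). The α7 to α6 ratio did not follow the classes. It was 0.154 and 0.279 in α/βp, next to 0.176 and 0.251 in α′/β′m and 0.138 and 0.131 in α′/β′ap+m. It was 0.0833 and 0.0780 in α/βs and 0.0636 and 0.0676 in α/βc, next to 0.0528 and 0.0844 in γm+d.

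**Figure D4:**
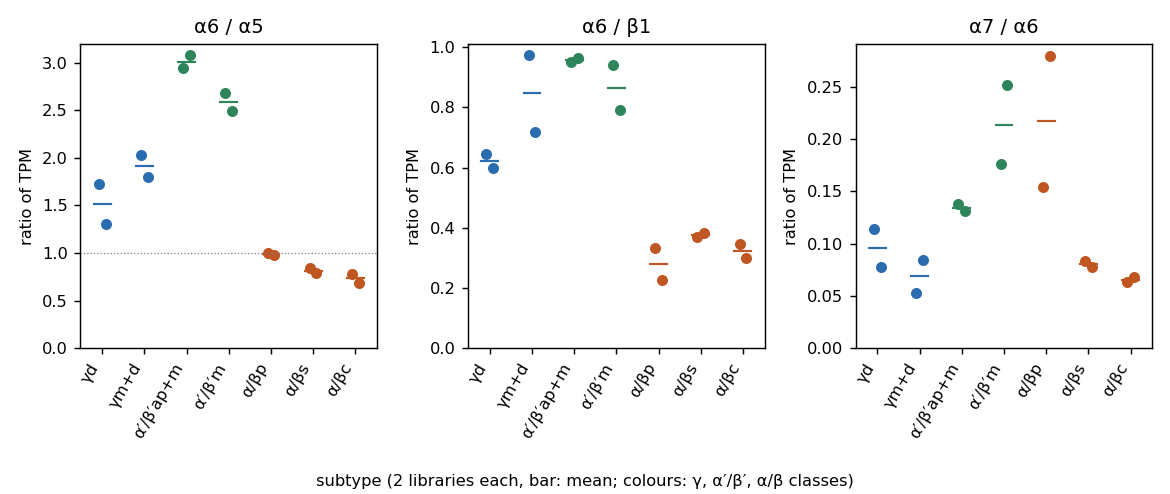
Ratio of TPM of 2 subunits within each library, by subtype (2 points each, bar at the mean, linear axes from 0). The α6/α5 ratio is at most 0.995 in the α/β subtypes and at least 1.30 in the γ and α′/β′ subtypes, and the α7/α6 ratio is 0.154 and 0.279 in α/βp.

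Comparisons among the 7 subtypes asked whether a subunit varied beyond the spread of the 2 libraries of a subtype, with the spread shared over all subtypes. By limma's F-test, 5 of 9 subunits varied, where 14.4% of all genes tested did. These were α7 (adjusted p = 4.923e-06), α6 (adjusted p = 1.679e-05), β1 (adjusted p = 0.0002926), α3 (adjusted p = 0.00589) and β2 (adjusted p = 0.03654). The β2 call was lost in 12 of 25 alternatives, 10 of which leave out 1 α/βs, α/βc, γm+d, α′/β′ap+m or α′/β′m library (adjusted p from 0.05695 to 0.1836). The β1 call was lost with median-ratio scaling (adjusted p = 0.1271) and with no variance trend (adjusted p = 0.3246). The α3 call was lost with the number of genes above 0 as a covariate (adjusted p = 0.05158). In the order of subtype means, α6 fell into 2 sets. The 4 γ and α′/β′ subtypes, from 12993 to 9948 TPM, each overlapped the next, and no library of theirs overlapped the 3 α/β subtypes at 3232, 2976 and 2306 TPM. For α7 the order was α′/β′m, α′/β′ap+m, γd, γm+d, α/βp, α/βs and α/βc, with 2636, 1378, 957, 645, 624, 240 and 151 TPM. Only γm+d and α/βp overlapped as neighbours in that order.

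α3, the scarcest subunit tested, was highest in α/βp. Its levels there were 61.2 and 73.3 TPM, against 5.86 and 8.82 TPM in α/βs and 9.58 and 6.94 TPM in α/βc. The γd libraries followed with 29.0 and 23.8 TPM, above 7.70 and 9.74 TPM in γm+d, and α′/β′m held 17.6 and 12.9 TPM against 1.18 and 1.99 TPM in α′/β′ap+m. The order of subtypes was thus α/βp, γd, α′/β′m, then γm+d, α/βc and α/βs, whose neighbours overlapped, and last α′/β′ap+m. Between α/βp and α/βs, 2 of 9 subunits were called, where 1.99% of all genes tested were, and between α/βp and α/βc, 2 of 9, where 3.17% were. Both times these were α3 and α7, higher in α/βp. α3 differed by 3.33 from α/βs (log2, SE 0.77, adjusted p = 0.04962) and by 3.44 from α/βc (log2, SE 0.77, adjusted p = 0.03308). α7 differed by 1.35 from α/βs (log2, SE 0.24, adjusted p = 0.01488) and by 2.16 from α/βc (log2, SE 0.24, adjusted p = 0.0006491). β1 passed the adjusted threshold in both comparisons at under 2-fold, with log2 differences of 0.59 (SE 0.10, adjusted p = 0.01278) and 0.46 (SE 0.10, adjusted p = 0.03136). Without 1 library the β1 differences were 0.54 to 0.62 and 0.44 to 0.48, but the adjusted threshold was not passed in every such fit.

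These calls were not equally firm. The α7 difference from α/βc held in all 25 alternatives. The α7 difference from α/βs was lost in 5, among them without α/βs replicate 1 (1.27, adjusted p = 0.1189), without α/βs replicate 2 (1.43, adjusted p = 0.09458) and without α/βp replicate 1 (1.21, adjusted p = 0.06511). The α3 difference from α/βs was lost in 18 of 25 and that from α/βc in 12 of 25, with log2 differences that stayed between 2.60 and 3.99. α/βp replicate 1 is 1 of the 3 libraries with few genes above 0, and without it the α3 differences were 2.99 (adjusted p = 0.1592) and 3.09 (adjusted p = 0.1236). α/βp replicate 2, with the highest α3 level of all, also held the highest ninaE (3569 TPM) and Yp1 (3888 TPM) levels. Gad1, the GABA-synthesizing enzyme, was at 154 and 88.3 TPM in α/βp, 61.7 and 46.9 TPM in α/βc and no higher than 16.1 TPM elsewhere. Gad1 and the vesicular transporter VGAT summed to 319 and 227 TPM in α/βp, against 146 to 299 TPM elsewhere. VGlut, the vesicular glutamate transporter, was also highest in α/βp (63.0 and 37.5 TPM, against 4.33 to 22.9 TPM elsewhere), as were the summed muscle genes Mhc and Act88F (70.7 and 184 TPM, against 5.73 to 49.0 TPM). The part of these GABAergic, glutamatergic and muscle markers in the α/βp result was not tested. With ninaE plus Yp1 as a covariate, α3 and α7 stayed called against α/βs (adjusted p = 0.01566 and 0.004306) and against α/βc (adjusted p = 0.01019 and 0.0003649).

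Within the other classes no subunit was called by limma. Between γd and γm+d, where 1.16% of all genes tested were called, 2 of 9 subunits had an unadjusted p under 0.05. α3 differed by 2.53 there (log2, SE 0.77, adjusted p = 0.1198), and was called with the ninaE plus Yp1 covariate (2.75, adjusted p = 0.04516). α2 was not called there (adjusted p = 0.1459). It was listed at 0 in γd replicate 1, and with γd replicate 2 left out it was called (adjusted p = 3.982e-05), while the α2 level in that library, 67.2 TPM, lay near the 98.6 TPM of γm+d replicate 1. Between α′/β′m and α′/β′ap+m, where 1.10% of all genes were called, 5 of 9 had an unadjusted p under 0.05. α3 differed by 2.62 (adjusted p = 0.1656), β2 by 0.97 (adjusted p = 0.1761), α7 by 0.87 (adjusted p = 0.1363), α4 by 0.64 (adjusted p = 0.4202) and β1 by 0.32 (adjusted p = 0.2048), all with 95% confidence intervals above 0. α1 and α2 had negative differences there (-0.62, adjusted p = 0.5909, and -0.38, adjusted p = 0.9668). The β2 levels were 574 and 459 TPM in α′/β′m against 295 and 281 TPM in α′/β′ap+m, the highest pair of all subtypes. With the ninaE plus Yp1 covariate, α4, α7 and β2 were called in this comparison. Between α/βs and α/βc, where 0.00% of all genes were called by limma, 356 genes and 1 of 9 subunits had an unadjusted p under 0.05. The α7 log2 difference was 0.81 (adjusted p = 0.7907, unadjusted p = 0.005853), and the other 8 subunits had unadjusted p from 0.1824 to 0.9617.

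α1, α2, α4 and α5 did not pass the F-test over subtypes. α1 lay between 185 TPM in α/βc replicate 2 and 621 TPM in γm+d replicate 1, with class medians of 390 TPM in γ, 359 TPM in α′/β′ and 240 TPM in α/β. α4, with 464 to 1182 TPM, had the smallest SD relative to its mean of the subunits (219 TPM around 758 TPM). α2 class medians were 82.9 TPM in γ, 115 TPM in α′/β′ and 90.6 TPM in α/β. The 3 genes of the 3R cluster did not share an order over subtypes. α1 and α2 were highest in γm+d (500 and 173 TPM), while β2 was highest in α′/β′m (517 TPM), where α1 was only the fifth of 7 (271 TPM). α1 and β2 were lowest in α/βc (199 TPM) and α/βp (174 TPM), and α2 was lowest in γd.

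The transcript table held 32 transcripts of the 10 genes, 25 of them with a mean of at least 10 TPM, and 3 were listed at 0 in every library. kallisto spreads reads over transcripts that share most of their exons, so the level of a transcript is an estimate that rests on the few bases it does not share. Usage was compared between classes with limma's diffSplice over 3660 genes with several expressed transcripts. α6 was the only subunit called. It was called in α/β versus α′/β′ (adjusted p = 4.25e-06), where 0.929% of the genes tested were called, and in α/β versus γ (adjusted p = 0.04695), where 1.67% were. No subunit was called in α′/β′ versus γ, where 1.12% of genes were, and the lowest unadjusted p of a subunit there was 0.1359.

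The α6 usage result rested on α6-RA, which ends in a last exon of 221 bases in place of the exons of 3767 and 3876 bases of the main transcripts. α6-RA was at 296 and 64.6 TPM in α/βs, 272 and 55.8 TPM in α/βc, and 0.12 and 99.1 TPM in α/βp. It was listed at 0 in all 4 α′/β′ libraries, in both γm+d libraries and in γd replicate 2, but reached 2226 TPM in γd replicate 1, the library with the fewest genes above 0. All transcripts with the short last exon together held 0.00% to 0.00841% of α6 TPM in α′/β′ and 0.00270% to 10.7% in α/β. Relative to the other α6 transcripts, α6-RA was higher in α/β than in α′/β′ (adjusted p = 8.398e-07) and than in γ (adjusted p = 0.01757), and no fold is given because most γ and all α′/β′ values were listed at 0. The call against α′/β′ held in all 20 alternatives. The call against γ was lost in 15 of 20, among them 12 that leave out 1 library (adjusted p up to 0.3005), and without γd replicate 1 the adjusted p was 1.943e-08.

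**Figure D5:**
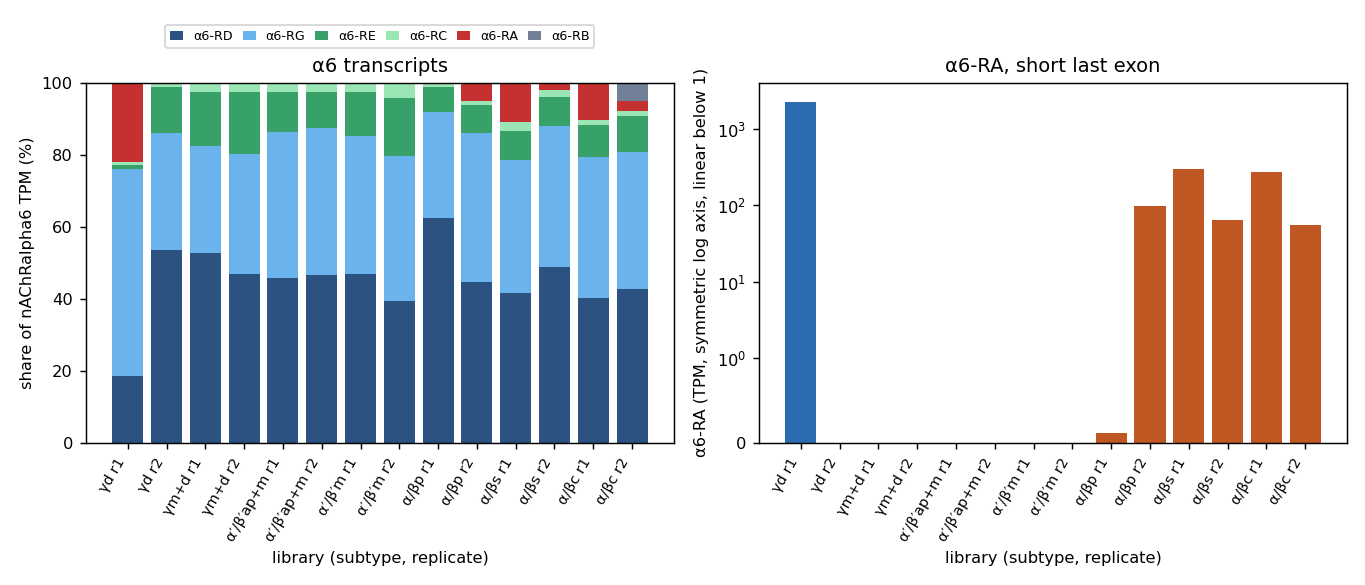
Left, share of each nAChRalpha6 transcript in the α6 TPM of a library, in percent, stacked from 0 to 100. Right, α6-RA in TPM on a symmetric log axis that is linear below 1, coloured by class (blue γ, orange α/β), where γd replicate 1 stands at 2226 TPM, 5 α/β libraries between 55.8 and 296 TPM, and the other γ and all α′/β′ libraries at 0.

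α6 transcripts also differ in a pair of alternative exons of 45 bases and a later pair of 87 bases. α6-RA holds only the first 45-base exon and only the second 87-base exon, a combination that no other listed α6 transcript has. Its level can therefore not be tied to the short last exon alone. α6-RD, which carries both 45-base exons and the second 87-base exon, had the highest mean, 3339 TPM, and α6-RG, with the second 45-base exon and the first 87-base exon, came next with 2859 TPM. α6-RD held 18.5% of α6 in γd replicate 1 and 39.3% to 62.6% in the other 13 libraries. α6-RE, which carries both 87-base exons, held 6.80% to 9.92% of α6 TPM in the 6 α/β libraries and 10.2% to 17.3% in γm+d, α′/β′ and γd replicate 2, but 1.36% in γd replicate 1. α/β thus lay below all other libraries but that 1, although the α6-RE transcript itself was not called in α/β versus α′/β′. Its log2 change there was -2.64 relative to the other α6 transcripts (diffSplice adjusted p = 0.4984). Those include α6-RA, so this value is not the change in the α6-RE share, whose mean was 8.25% in α/β and 12.5% in α′/β′. As annotated, these exon choices change the coding length from 1482 to 1527 bases (α6-RD) and 1569 bases (α6-RE).

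For β1, a short transcript took a large part of the signal in every library. β1-RB has 2 exons, 818 bases and a coding length of 192 bases, against 7 exons, 2460 bases and 1563 coding bases in the full-length β1-RA. β1-RB held 40.1% to 54.5% of β1 TPM, with a median of 48.9%, and its share was higher in α′/β′ (52.5% to 54.5%) than in every γ (42.9% to 48.0%) and α/β (40.1% to 51.6%) library. Usage of β1 transcripts was not called in these comparisons (adjusted p = 0.6369 for α′/β′ versus γ and 1 for α/β versus α′/β′). Of its bases, 514 (62.8%) lie in introns of β1-RA. β2-RB, with 9 exons and 912 coding bases, held 82.9% to 100% of β2 TPM, and 2126 of its 4018 bases (52.9%) lie in introns of β2-RA. The libraries were made from nuclear RNA, so unspliced β1-RA or β2-RA reads and these transcripts cannot be told apart from the tables. The full-length β1-RA alone, at 3441 to 9324 TPM, was above α5 in 13 of 14 libraries. It was above α6 in all 6 α/β libraries and below α6 in the 8 others, so the leading place of β1 in γ and α′/β′ rests on counting β1-RB. The summed levels, the shares of all subunits, the ratios to β1 and the rank of β1 among all genes also count β1-RB. No share without β1-RB is given.

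No difference in usage was called for the other subunits. All α1 TPM was on α1-RC, whose last exon spans 8050 bases, and α1-RA and α1-RB, with 849 bases in that exon, were listed at 0 in every library. α5 was divided among α5-RH (47.0% to 57.9%), α5-RD (28.2% to 38.4%) and α5-RB (5.38% to 17.1%), which share 1 coding length of 2424 bases and differ in their first and last exons. α4 was divided among α4-RD (mean 248 TPM), α4-RF (224 TPM), α4-RC (147 TPM), α4-RE (74.0 TPM) and α4-RH (63.9 TPM). Transcripts that hold neither of the alternative exons of 181 bases made up 53.9% to 79.7% of α4 TPM. Without those exons the annotated coding length is 1113 bases in α4-RD and α4-RF, against 1617 bases in α4-RC and α4-RH. α7-RA (mean 441 TPM), α7-RD (276 TPM), α7-RF (127 TPM) and α7-RE (104 TPM) all varied in share, α7-RA from 13.7% to 71.5%. α2 changed between α2-RA and α2-RB from library to library, each between 0% and 100% of the gene, and α3 was mostly α3-RC (35.6% to 100%), whose last exon spans 6958 bases.

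Genes that act with nicotinic receptors were taken from 3 lists. In the list of acetylcholine handling and muscarinic receptors, 2 of 7 genes were called higher in α/β than in γ and none lower, where 3.10% of all genes tested were called in either direction. In α/β versus α′/β′, 2 were called higher and 1 lower, where 4.89% of all genes were called. The higher genes were both muscarinic receptors, which couple to G proteins. mAChR-A was at 200.4 to 358 TPM in α/β against 86.4 to 171 TPM in γ and 64.1 to 162 TPM in α′/β′ (log2 difference 1.04, adjusted p = 0.02652, and 1.43, adjusted p = 0.001286). mAChR-B was at 106 to 276 TPM in α/β against 12.2 to 113 TPM in γ and 24.0 to 61.3 TPM in α′/β′ (log2 difference 1.46, adjusted p = 0.0257, and 2.19, adjusted p = 0.0005301). The calls against α′/β′ held in 27 of 28 alternatives for both genes. The alternative that lost them has 1 value per subtype, so libraries of a subtype are not counted separately. It gave limma adjusted p = 0.07465 for mAChR-A and 0.05594 for mAChR-B. Both calls against γ were also lost in it (adjusted p = 0.2926 and 0.2672). Against γ the mAChR-A call was lost in 14 (log2 difference 0.81 with median-ratio scaling) and the mAChR-B call in 9 (0.96 without both γd libraries and α/βp replicate 1). The muscarinic and the nicotinic receptor genes that were called between these classes thus had opposite directions. Ace, the acetylcholinesterase that breaks down the transmitter, was lower in α/β (89.5 to 375 TPM) than in α′/β′ (382 to 556 TPM, log2 difference -1.61, adjusted p = 0.01906), and its 2 highest α/β values, 375 and 278 TPM, were both in α/βp, as for α7. The Ace call was lost in 6 of 28 alternatives, among them without α′/β′m replicate 1 (-1.48, adjusted p = 0.07709) and without α′/β′ap+m replicate 1 (-1.64, adjusted p = 0.05175). It was also lost with 1 value per subtype (-1.57, limma adjusted p = 0.2241).

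Of 4 genes of receptor assembly, accessory proteins and RNA editing, 1 was called in α′/β′ versus γ (2.82% of all genes tested) and 2 in α/β versus α′/β′ (4.89% of all genes tested). Adar, the adenosine deaminase that edits messenger RNAs of ion channels in the fly, was higher in α′/β′ (635 to 1004 TPM) than in γ (248 to 573 TPM, log2 difference 1.06, adjusted p = 0.04135), but this call was lost in 18 of 28 alternatives, 10 of which leave out 1 library, and the difference was 0.54 with median-ratio scaling (adjusted p = 0.3133). It was lower in α/β (195 to 422 TPM) than in α′/β′ (log2 difference -1.25, adjusted p = 0.004042), which held in 26 of 28. With 1 value per subtype both Adar calls were lost (limma adjusted p = 0.4028 against γ and 0.1446 in α/β versus α′/β′). qvr, which encodes a small membrane-anchored protein that acts on potassium channels and nicotinic receptors, was at 796 to 2173 TPM in α/β and 1975 to 3287 TPM in α′/β′ (log2 difference -1.12, adjusted p = 0.009613). The qvr call was lost in 5 of 28, among them without α′/β′m replicate 1 (-0.98, adjusted p = 0.05158) and with 1 value per subtype (-1.10, adjusted p = 0.2059). In α/β versus α′/β′ the direction for Adar and qvr was the same as for α6 and α7. Of the uncalled genes of the list, RIC-3 had the opposite sign there (log2 difference 0.41 to 0.57 over 28 alternatives). CG9773 had the same sign (-1.98 to -0.66). In α/β versus γ, where α6 was called, Adar (-0.19, limma adjusted p = 0.7726) and qvr (-0.56, adjusted p = 0.2802) were not.

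Of 12 other genes of the cys-loop channel family, which includes the inhibitory chloride channels, 8 were tested. GluClalpha, a glutamate-gated chloride channel, was the only one called, in α′/β′ versus γ and in α/β versus α′/β′, where 2.82% and 4.89% of all genes tested were called. It was lower in α′/β′ (726 to 1420 TPM) than in γ (1877 to 4012 TPM, log2 difference -1.26, adjusted p = 0.02812), a call lost in 9 of 28 alternatives, among them without either γd library (adjusted p = 0.05514 and 0.113). It was higher in α/β (1583 to 4845 TPM) than in α′/β′ (log2 difference 1.75, adjusted p = 0.0004945), which held in 27 of 28. With 1 value per subtype both GluClalpha calls were lost (limma adjusted p = 0.3581 against γ and 0.05751 in α/β versus α′/β′). By the ranges above, α′/β′ libraries held the lowest GluClalpha levels without overlap, and at the same time the highest α7 levels.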

How the data were processed

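Nuclear RNA of 14 libraries was sequenced by the authors, who trimmed reads with seqtk and quantified them with kallisto against Ensembl release 91 transcripts of BDGP6 (dm6), plus spike-in and reporter sequences. Entries for ribosomal RNA, the reporter and the spike-in were dropped before rescaling, so the deposited values are TPM per gene and per transcript. Columns of the authors' means were not used, and 0 per-sample columns lacked a sample. The study fitted voom to estimated counts, which were not used here, so limma was run on TPM instead. Depth per library cannot be read from TPM.

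Groups followed the labels. Genes with at least 10 TPM in 1 library were kept, log2(TPM + 1) was quantile-normalized and fitted in R 4.3.3 with limma 3.58.1 (variance trend, Benjamini-Hochberg adjustment). Class comparisons used 1 mean per class and subtype comparisons 1 mean per subtype. Usage was tested with diffSplice, and the steps were tested on simulated data. Positions and exons came from Ensembl release 115 of the same assembly. Tables and figures used Python 3.11.15, numpy 2.4.6, pandas 2.3.3 and matplotlib 3.10.9. All subunits, their transcripts with a mean of at least 10 TPM, and those list genes called between classes were named, with the uncalled RIC-3 and CG9773 beside them. The members, gene lists and marker lists were chosen with earlier results of these data known. Alternatives were pseudocounts of 0.1 and 5, no further normalization, median-ratio scaling, no filter or a filter on 2 libraries (4 for transcripts), no variance trend, a replicate block, class contrasts from subtype means, 1 value per subtype, leaving out libraries, and setting transcripts under 1 TPM to 0 for shares. Chosen after seeing the data were a covariate of ninaE plus Yp1, a covariate of the number of genes above 0, and a fit without both γd libraries and α/βp replicate 1.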

Additional observations from a re-analysis of the deposited data

Results flagged for a closer look

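In 6 of 56 groups of 4 to 6 libraries, 1 library lay far from the rest of its class by Dixon's gap test at the 95% level. The groups include both the TPM and the share of a gene in the same libraries. They are therefore not independent, and their number cannot be set against chance. For α1, γm+d replicate 1 held 621 TPM, against 374 to 400 TPM in the other γ libraries. α′/β′m replicate 1 was above the rest of its class for α5 (6204 TPM against 3313 to 3746 TPM) and for α6 (16639 TPM against 9347 to 10343 TPM). For β1, α/βp replicate 1 held 13375 TPM, against 6584 to 8842 TPM in the other α/β libraries. β3 was flagged by TPM and by share through the same value, with all other γ libraries at 0. It was listed above 0 in γm+d replicate 2 only, at 1.36 TPM and 0.00617% of the summed subunit TPM. α6 remained called between α/β and α′/β′ without α′/β′m replicate 1.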

How the results depend on the processing

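Refitting kept the count of called subunits within 1.5-fold in 235 cases and moved it further in 59. Of the gene and transcript tests, 4000 kept their call or lack of one, 131 lost a call and 33 gained one, none reversed, and all 170 shares moved by less than 1 SD. In 161 cases the sign turned for a difference called under neither setting. Without further normalization the median of all genes was 0.88 for α′/β′ minus γ, 0.60 for α/β minus γ and -0.28 for α/β minus α′/β′, with median-ratio scaling 0.50, 0.34 and -0.15, against 0.16, 0.11 and -0.07 as reported.

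In the class comparisons, subtype means called 2 subunits in α′/β′ versus γ and 2 in α/β versus γ. Without γd replicate 1 and α/βp replicate 1 together these were 1 and 3, and the covariate of genes above 0 called 1 in α′/β′ versus γ. Leaving out 1 library gave 0 to 1, 1 to 2 and, for α/β versus α′/β′, 2 to 3. With the ninaE plus Yp1 covariate, 1 was called in γd versus γm+d (0 to 1 without 1 library) and 3 in α′/β′m versus α′/β′ap+m. For α/βp versus α/βs, 1 was called with a pseudocount of 0.1, no normalization, no filter, no variance trend, without those 2 libraries and with the covariate of genes above 0, and 0 with median-ratio scaling (0 to 2 without 1 library). For α/βp versus α/βc, 1 was called with a pseudocount of 0.1, no normalization, median-ratio scaling, without those 2 libraries and with the covariate of genes above 0 (1 to 2 without 1 library). The F-test over subtypes called 3 with median-ratio scaling or no variance trend, 8 with the ninaE plus Yp1 covariate and 4 to 6 without 1 library. Usage in α/β versus γ was called for 0 subunits with a pseudocount of 5 or no normalization (0 to 1 without 1 library). The cause of these shifts was not tested.

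Replicate numbers did not meet the criterion for pairing, a correlation over 0.1 in every pair of subtypes. Differences between replicates correlated between subtypes with r from -0.0585 to 0.208 over 21 pairs, of which 6 were below 0. The 3 over 0.1 were those among γm+d, α′/β′m and α/βp, in each of which replicate 1 had the higher summed subunit TPM and fewer genes above 0. With a replicate block, 1 subunit, α7, was called in α/βp versus α/βs, while α3 lost its call (3.33, limma adjusted p = 0.05218). For usage in α/β versus γ, 0 were called with the block (α6 adjusted p = 0.05012). α6 in α/β versus γ was -1.66 with the block (limma adjusted p = 6.084e-06). Depth was not used here, so no limit of detection is set for subunits listed at 0.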
